A study of Mus musculus with 4 samples.

Results

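Exoc4 is a very long gene on the plus strand of mouse chromosome 6. A library of RNA captured with the transcription factor YY1 gave a run of peaks along more than 500 kb of the gene's position. The members are all peaks that overlapped positions 33190000 to 33930000 of chromosome 6 (build mm9), a window of 740 kb that holds the gene and starts 9150 bases before the gene start near 33199150. Plus and minus are read from the file names of the lists, whose meaning no label states. The members numbered 40 of the 12053 peaks of the library: 39 of the 6148 plus-strand peaks and 1 of the 5905 minus-strand peaks. The window was chosen by its number of peaks in these same lists, so the counts and positions below are a description and no test is made of them.

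The peaks came from CLIP-seq, which sequences the RNA that ultraviolet light (254 nm here) has joined to a protein. Mouse embryonic stem cells of the genotype BirA BioYY1 carried a YY1 that the bacterial biotin ligase BirA can biotinylate, and the tagged protein was captured from lysed nuclei on streptavidin beads. Irradiated mouse embryonic fibroblasts served as feeder cells, and the labels do not say whether the BirA BioYY1 cells are 1 clone. There was 1 library, so no spread between replicates is known. The control library from cells with BirA alone, the OCT4 library and its BirA control were not analysed here, so the signal that the window would show without tagged YY1 was not tested. The lists give no height or score for a peak, and read depth is unknown. No mm9 gene annotation was used, so the cell type was not checked against marker genes, and exons and introns of Exoc4 could not be told apart.

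Exoc4, also called Sec8, encodes a subunit of the exocyst, the complex that tethers secretory vesicles to the plasma membrane before they fuse with it. YY1 is a zinc finger protein that binds DNA at promoters and enhancers and that also binds RNA. A nuclear CLIP library samples unspliced transcripts as well as mature RNA, and in a long gene nearly all of the transcribed sequence is intron.

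The start of Exoc4 carries a match to the DNA motif of YY1, shown here because YY1 is the captured protein and the first RNA peak began downstream of the gene start. RefSeq's promoter table (build GRCm38.p6, plus strand) has 1 promoter of 300 bases for the gene, running from 250 bases before a start to 50 after it. The first sequence, chr6:33248878-33249089, is the part of it before the earliest annotated gene start, with the letters of a motif known from ZNF143, another promoter-binding zinc finger protein, in capitals. The second, chr6:33249140-33249169, is a stretch of 30 bases with the YY1 motif in capitals.
Exoc4 promoter, bases 1 to 212: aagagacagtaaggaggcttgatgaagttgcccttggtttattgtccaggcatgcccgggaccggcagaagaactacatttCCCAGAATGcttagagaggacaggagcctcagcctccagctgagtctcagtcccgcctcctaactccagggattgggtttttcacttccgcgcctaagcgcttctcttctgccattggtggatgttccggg
Exoc4 promoter, bases 263 to 292: ctcccgtaccAAGATGGCGgcagaagcagc

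The YY1 motif was searched on both strands as AANATGGC and, in a longer form that includes one version of it, as AAGATGGCG. Both matched the Exoc4 promoter at the same place, with the longer form at bases 273 to 281 on the strand of the gene. These bases fall among the 50 after the start from which the promoter is counted, not upstream of it. Among 32851 promoters in the table, 6.05% held the shorter form and 1.40% the longer one. The longer form was on the strand of the gene in 0.977% of promoters and on the opposite strand in 0.435%. Of the 9 exocyst genes looked up (Exoc1 to Exoc8 and Exoc6b, with 13 promoters in all), 2 held the longer form, Exoc4 and Exoc7. Counted by gene, 1.64% of all 27025 genes in the table held it. The letters CCCAGAATG, searched after the sequence had been read, lay at bases 82 to 90 of the Exoc4 promoter and in 0.679% of all promoters. A match is a run of letters and does not show binding. These positions belong to another build than the peaks and were not carried over to it.

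The first peak did not lie at the gene start. It ran from 33201200 to 33201431, began 2.05 kb downstream of the start that the rule names, and was 232 bases wide. No peak of either strand lay in the 9150 bases of the window before the gene start. On the plus strand the nearest peak before the window ended at 31453338, 1746 kb before the gene start, and was 264 bases wide. On the far side the next plus-strand peak began at 34640414, 710.4 kb after the window's end, and was 263 bases wide. Between these outer peaks lay 3187 kb of chromosome 6. Its plus-strand peaks were the 39 of the window, as follows from taking the nearest peaks outside. The same stretch held 7 minus-strand peaks, the 1 of the window included.

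**Figure D1:**
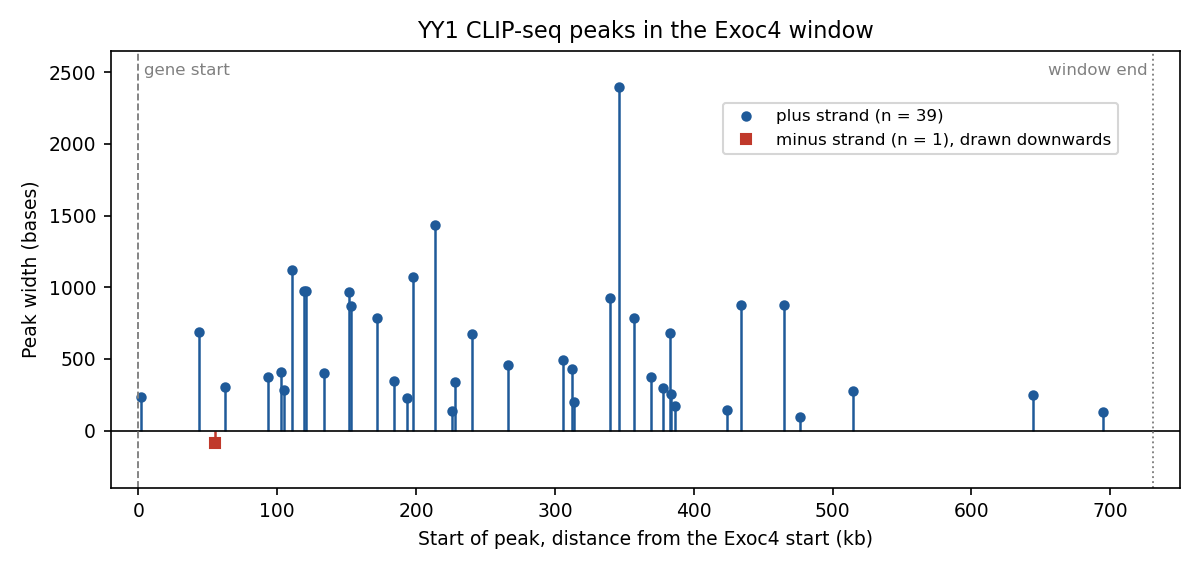
Each point is 1 peak of the window, with its distance from the Exoc4 start in kb on the x axis and its width in bases on the y axis; blue circles are plus-strand peaks and the red square, drawn downwards, is the minus-strand peak. The 39 plus-strand peaks thin out after 400 kb and further after 515 kb, the widest measures 2400 bases, and the single minus-strand peak lies 54.8 kb from the start.

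Counted per 50 kb, peaks were sparse over the first 100 kb of the gene, dense from 100 to 250 kb, and dense again from 300 to 400 kb. The first 50 kb from the gene start held 2 peaks and the next 50 kb another 2. From 100 to 150 kb there were 6 peaks and from 150 to 200 kb again 6, followed by 4 from 200 to 250 kb. The stretch from 250 to 300 kb then held a single peak, at 33465383 to 33465839. Numbers rose again to 5 from 300 to 350 kb and 6 from 350 to 400 kb. Beyond that point the peaks thinned out, with 2 from 400 to 450 kb, 2 from 450 to 500 kb and 1 from 500 to 550 kb. Each of the first 11 bins of 50 kb held at least 1 peak, and no peak crossed a bin's end.

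The bases covered by peaks followed the same 2 dense stretches. Coverage was 916 bases in the first 50 kb and 674 in the second. It was 4166 bases from 100 to 150 kb, 4261 from 150 to 200 kb and 2589 from 200 to 250 kb. From 250 to 300 kb it dropped to 457 bases. The bin from 300 to 350 kb had the highest coverage, 4447 bases, of which 2400 belonged to 1 peak. Of the 39 peaks, 20 lay within 250 kb of the gene start, or 51.3% (95% Clopper-Pearson interval 34.8 to 67.6, which covers counting error only and treats peaks as independent). The richest stretch of 100 kb that starts at a peak held 12 peaks, from 33302047 to 33397706.

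**Figure D2:**
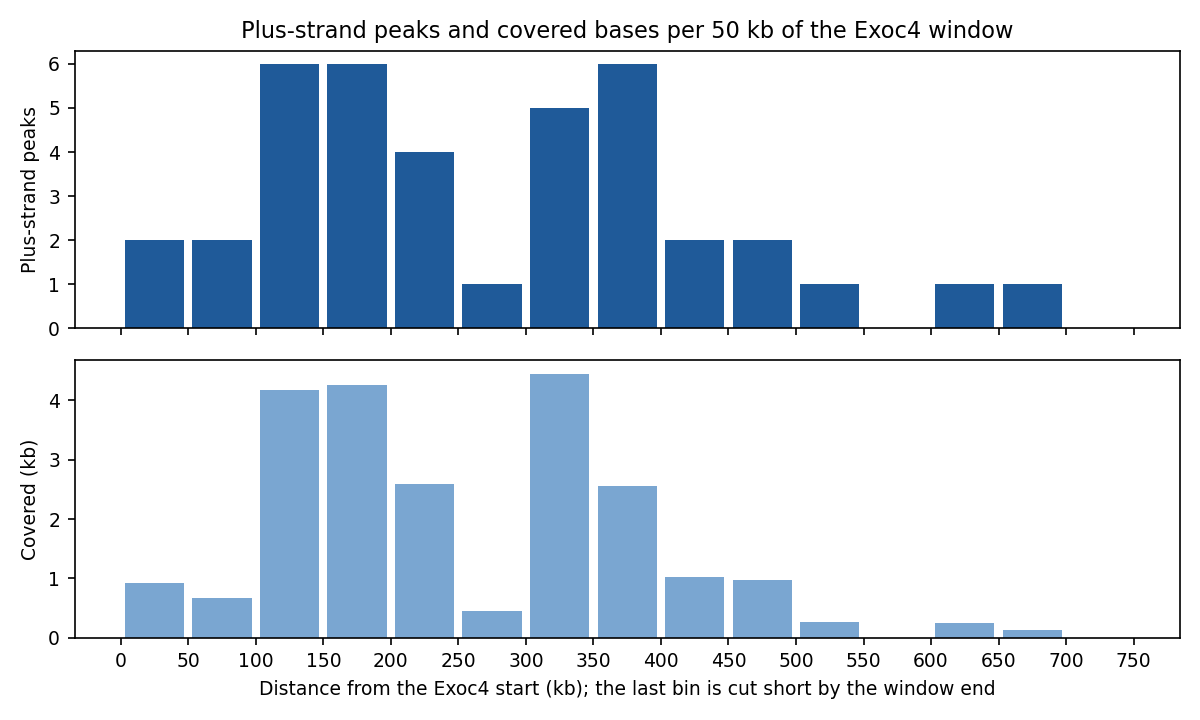
Bars give the number of plus-strand peaks (upper panel) and the kb they cover (lower panel) in each 50 kb counted from the Exoc4 start; the last bin is cut short by the window's end. The bins from 100 to 200 kb and from 350 to 400 kb reach 6 peaks, the bin from 250 to 300 kb holds 1, and the bins from 550 to 600 kb and after 700 kb hold none.

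The run of peaks, already thin after 400 kb, ended well before the window did, and 2 more peaks lay beyond it. Joined across gaps of at most 50 kb, the first 37 plus-strand peaks formed 1 chain, whose last peak ran from 33713894 to 33714166. With a limit of 25 kb the chain broke into 9 pieces, the longest with 17 peaks, from 93.2 to 241.2 kb. The last peak of the whole chain ended 515 kb from the gene start and 216 kb before the window's end. A gap of 129.4 kb followed, longer than any inside the chain, as a gap that ends a chain must be by the 50 kb limit. After it came a peak of 248 bases at 33843540 to 33843787 and, 50.1 kb further on, one of 129 bases at 33893881 to 33894009. The latter was the last peak of the window, 695 kb from the gene start and 36.0 kb before the window's end. It was followed by 746 kb with no plus-strand peak. The gap between the last 2 peaks, 50093 bases, was only just over the 50 kb limit. With a limit of 100 kb they would form a pair, still apart from the chain. The mm9 position of the gene's end was not used here, so the distance from the last peak to that end is not given. With depth unknown, the thin stretch is not shown to lack bound RNA.

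Gaps inside the chain ranged over more than 2 orders of magnitude. The median of the 36 gaps was 10.2 kb (95% interval from binomial ranks 5784 to 14795 bases), with quartiles of 5264 and 17778 bases. The coefficient of variation, the SD over the mean, was 0.888. The longest gap, 41.5 kb, was the very first, between the peak next to the gene start and the one at 33242934 to 33243617. The next 2 were 39.3 kb, ending at the peak that begins at 33505176, and 38.5 kb, just before the last peak of the chain. Gaps over 30 kb numbered 6, and gaps of up to 1 kb numbered 3. The shortest, of 201 bases, parted peaks of 966 and 869 bases at 33350954 to 33351919 and 33352121 to 33352989. Gaps of 416 and 459 bases lay before the peaks that begin at 33320177 and 33582759. Gap length had no rank relation to distance along the chain, with a Spearman's rho of 0.0064 over 36 gaps of 1 library, given as a description.

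**Figure D3:**
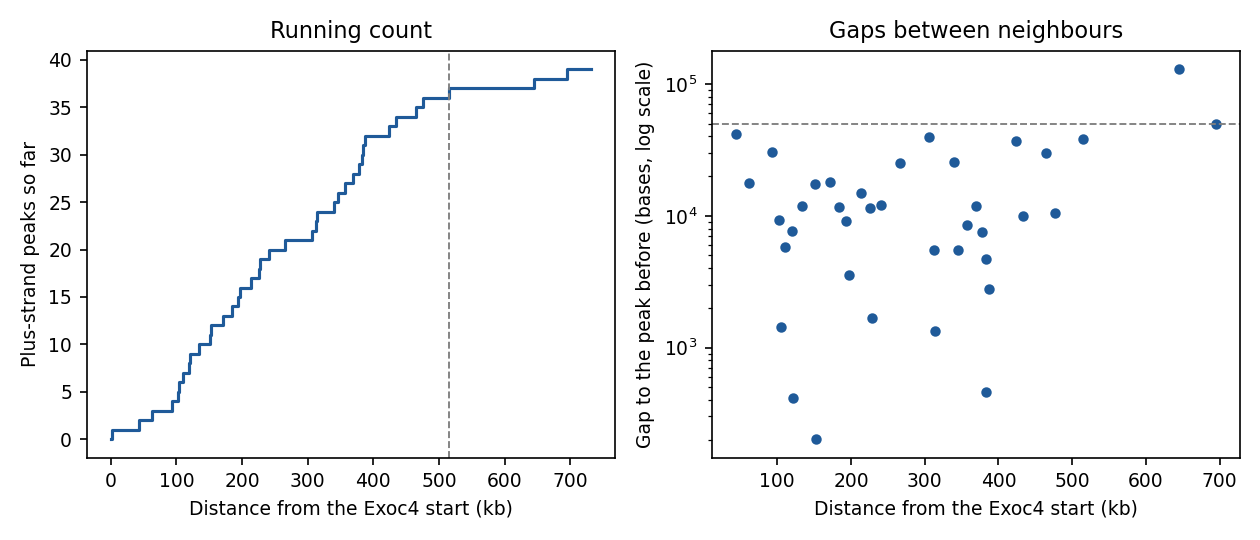
The left panel counts the plus-strand peaks met so far along the distance from the Exoc4 start in kb, with a dashed line at the end of the chain, and the right panel gives for each peak the gap in bases to the one before it, on a log scale, with a dashed line at the 50 kb limit that joins a chain. The count climbs to 37 by 515 kb and gains only 2 more, after gaps of 129.4 and 50.1 kb.

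Width, the only measure of a peak's extent in the lists, varied between 97 and 2400 bases among the 39 plus-strand peaks. The median was 411 bases (95% interval from binomial ranks 296 to 786), against 335 (327 to 345) for the 6109 plus-strand peaks outside the window, and the 2 intervals overlapped. Peaks over 500 bases were 16 of the 39 peaks, or 41.0% (25.6 to 57.9), and 30.3% outside (29.2 to 31.5). Those over 1000 bases were 4 of 39, or 10.3% (2.87 to 24.2), against 7.99% (7.32 to 8.70), and those under 200 bases 6 of 39, or 15.4% (5.86 to 30.5), against 24.2% (23.1 to 25.3). The share of narrow peaks in the window was below the one outside and the shares of wide peaks above it, but each outside share lay within the interval of the window's own.

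The widest peak, of 2400 bases, lay in the middle of the chain, from 33544994 to 33547393, about 346 kb from the gene start. The second widest, of 1437 bases, ran from 33412502 to 33413938. Peaks of 1121 bases (33309967 to 33311087) and 1070 bases (33396637 to 33397706) followed. The fifth rank was shared by neighbours of 976 bases each, at 33318785 to 33319760 and 33320177 to 33321152. All of these were in the 2 dense stretches. The narrowest peak, of 97 bases, ran from 33675306 to 33675402, near the far end of the chain. The last peak of the window, of 129 bases, was the next narrowest, and the third was one of 136 bases at 33425395 to 33425530, inside the first dense stretch.

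Widths were lower towards the far end, with wide scatter. The 20 peaks of the first 250 kb had a median of 543.5 bases and a range of 136 to 1437. The 12 peaks from 250 to 400 kb had a median of 442 bases, between 168 and 2400. The 5 from 400 to 550 kb had a median of 273 bases, between 97 and 875, and the last 2 measured 248 and 129. Over the 39 peaks, Spearman's rho between width and distance from the gene start was -0.29, and Pearson's r with log10 width was -0.31. Within the chain of 37 these were -0.19 and -0.18, so the relation was weaker without the last 2 peaks. The peaks share 1 library and 1 gene, and the coefficients are descriptions.

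The opposite strand of the window held 1 peak. The only minus-strand peak of the window, at 33253968 to 33254055, was 88 bases wide, narrower than each of the 39 plus-strand peaks. It lay 54.8 kb from the gene start, 10350 bases after one plus-strand peak and 7292 bases before the next, and so overlapped none. The plus strand thus held 97.5% of the window's peaks (86.8 to 99.9). At the mean density of their strands on chromosome 6, 740 kb would hold 1.79 minus-strand peaks and, with the window left out, 1.45 plus-strand peaks. The minus strand of the window was near the chromosome's mean and its plus strand far above it. The plus-strand excess and the 97.5% share carry the choice of the window by its number of peaks, and are descriptions. The nearest minus-strand peaks outside were 749 bases wide at 33009466 to 33010214 and 417 bases wide at 34845174 to 34845590, 188.9 kb before the gene start and 915.2 kb after the window's end.

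The strand lists cannot by themselves assign a peak to Exoc4. In RefSeq's GRCm38 gene table, which gives no strand, 2 further genes lie inside Exoc4, the pseudogene Gm13854 and the long noncoding RNA gene Gm38785. The nearest protein-coding neighbours are Chchd3 before it and Lrguk after it. How many of the 39 peaks fell on the nested genes was not tested, since no positions were carried between builds. Peaks of the other exocyst genes were not counted for the same reason.

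Set beside the rest of the library, the window held more peaks on 1 strand than all but 1 of the other windows of its length laid end to end. It was chosen by its number of peaks, so a high rank was given in advance and is a description only. It was also placed around a gene, while the other windows start at fixed positions and can split a run. Windows of the same length laid end to end along both strands of every chromosome numbered 7093 without its own, with a mean of 1.69 peaks, and 1 of them held as many peaks. That one, a minus-strand window of chromosome 8, held 50 peaks, which covered 8122 bases, against 22713 bases in the Exoc4 window. With windows that start every 50 kb, those holding 39 or more peaks still lay at this 1 place. In all, 10 of the windows laid end to end, that one included, held 20 or more peaks on a strand. They had 1 to 27 peaks on their opposite strand, with a median of 6.5, and none of the 10 had as high a share on 1 strand as the Exoc4 window. These windows were not fitted to a gene and can take in neighbouring places. Within their own spans, 22 of the 37 other chains with 10 or more peaks had no opposite-strand peak, so a high share is not particular to Exoc4.

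Of 38 same-strand chains with 10 or more peaks, the Exoc4 chain had the longest span, 513 kb, 1.77 times that of the next. This rank is given for the gap limit of 50 kb only. With a limit of 25 kb the longest piece of the Exoc4 chain spanned 148 kb, and its rank at that limit was not determined. The other 37 had a median span of 162 kb and a median of 12 peaks. In peaks per 100 kb the Exoc4 chain ranked only 25th, with 7.21 against a median of 8.66 in the others, and 13 of the others were sparser. Its median width of 427 bases was exceeded in 21 of the 37, and its peaks covered 4.35% of the span. Among the others, 22 had no peak on the opposite strand within their span and 7 had 1, as the Exoc4 chain did.

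The 3 next longest chains differed from it in different ways. On chromosome 2, between 20441130 and 20731058, 15 plus-strand peaks spanned 290 kb with a median width of 548 bases, at 5.17 peaks per 100 kb and with no peak opposite. On chromosome 12, between 80524962 and 80761424, 11 plus-strand peaks spanned 236 kb with a median of 558 bases, at 4.65 per 100 kb and again with none opposite. These 2 had somewhat wider peaks than the Exoc4 chain, at a lower density. The other, a minus-strand chain of chromosome 13 between 23453508 and 23714426, spanned 261 kb. It was unlike the Exoc4 chain, since its 23 peaks had a median width of 129 bases, and 21 plus-strand peaks lay opposite them. These differences compare single places of 1 library and were not tested.

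**Figure D4:**
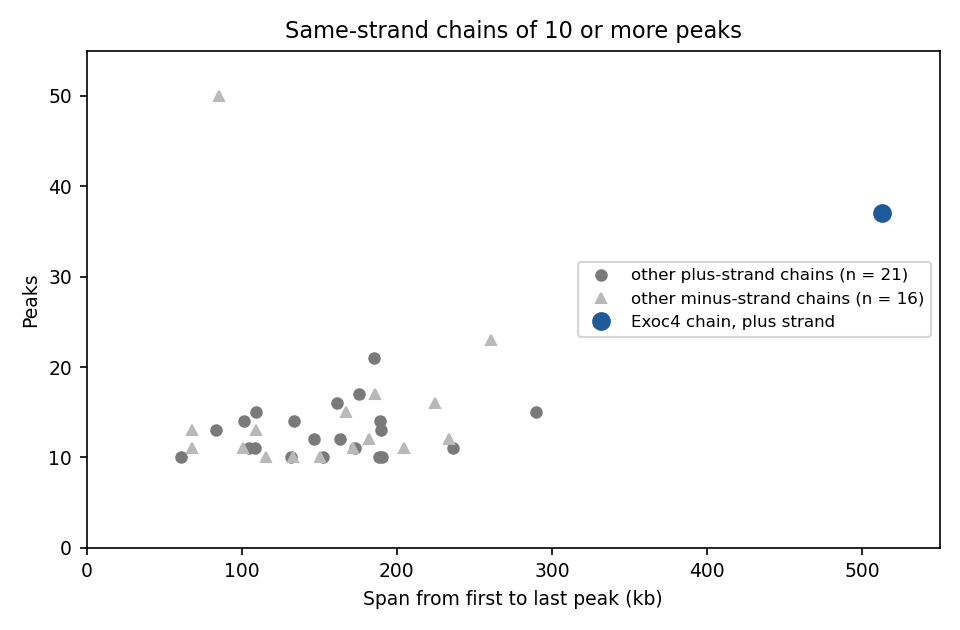
Each point is a same-strand chain of 10 or more peaks joined across gaps of at most 50 kb, with its span in kb on the x axis and its number of peaks on the y axis; circles are plus-strand and triangles minus-strand chains. The Exoc4 chain, in blue, has 37 peaks over 513 kb, while the other 37 chains span at most 290 kb.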

How the data were processed

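The 2 peak lists of the BirA BioYY1 library, 1 per genome strand, were used as deposited. They have 3 columns, chromosome, start and end. Cutadapt, Bowtie, Bowtie2 and SAMtools and the build mm9 are named in the submitters' processing notes; not given in the sources used here are the peak caller, its threshold and any use of a control. Strand was taken from the list names, which the labels do not explain. Starts were converted to 1-based positions. The window and the gene start came from the selection rule. Members, chains and the peaks named (first and last, the 5 widest, the 3 narrowest, both sides of the 3 longest and 3 shortest gaps, all minus-strand peaks, the nearest outside) were chosen with earlier results of these data known. Peaks were put in bins by their start. Shares have exact Clopper-Pearson 95% intervals, and medians have intervals from binomial ranks; both cover counting error over peaks only. The code that counts chains and windows was checked for correct counting on made-up peak lists with known answers; no count was set against simulated peaks. Alternatives were the wider 50% of peaks, joined peaks, and other bins, gap limits and window placements. Figures were drawn with matplotlib 3.10.9, and values were computed in Python 3.11.15 with scipy 1.17.1, pandas 2.3.3 and numpy 2.4.6.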

Additional observations from a re-analysis of the deposited data

How the results depend on the processing

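Of 23 alternative values, 14 lay within the main value's interval or, for counts, ranks and distances, within 1.5 times it, the correlation of width with distance moved by under 0.1, and no direction turned. With the wider 50% of each strand's peaks, 25 plus-strand peaks and 0 minus-strand peaks were in the window, and the last ended 466 kb from the gene start. Bins of 25 kb gave at most 10 peaks per 50 kb, against 6 with 50 kb bins. They also showed the first dense stretch to be uneven. Its 25 kb bins from 125 to 150 kb and from 200 to 225 kb held 1 peak each, as did each 25 kb bin of the first 100 kb. A gap limit of 25 kb broke the chain, leaving 17 peaks in its longest piece, from 93.2 to 241.2 kb; a limit of 100 kb kept 37. The window ranked 2 by peak count among windows laid end to end and 15 among overlapping windows that start every 50 kb, where the windows above it all lay at 1 place. It ranked 1 with the wider 50% of peaks, also with starts every 50 kb, and by covered bases it ranked 1 end to end and 4 with starts every 50 kb; the combined settings were added after seeing the data. No paired analysis was possible because only the BirA BioYY1 library was used.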

Other observations

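Neighbouring peaks of exactly equal width occurred in 2 of the 36 neighbour pairs of the Exoc4 chain, or 5.56% (95% Clopper-Pearson interval 0.680 to 18.7). The first pair, of 976 bases each, had starts 1392 bases apart. The second, of 875 bases each, at 33633078 to 33633952 and 33663985 to 33664859, had starts 30907 bases apart. Over the whole plus-strand list, 7 of 2887 neighbour pairs within 50 kb were of equal width, or 0.242%, and these 7 include both pairs of Exoc4. On the minus strand 8 of 2781 pairs were, or 0.288%. This was noticed in the data, and the sequence of these peaks was not examined.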
